A study of Mus musculus with 28 samples.

Results

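The proteasome is described here by the genes whose symbols start with Psma, Psmb, Psmc, Psmd, Psme, Psmf or Psmg followed by a digit. The pattern found 50 of the 23995 genes listed in the deposited tables, all of them protein-coding, spread over 16 chromosomes. They comprise 7 alpha-ring genes, 7 beta-ring genes, 5 tissue-specific subunits, 6 base ATPases, 3 other base subunits, 8 lid subunits, 4 activators, 1 inhibitor and 7 assembly chaperones. Psmc3ip, which encodes a meiotic recombination factor, and Psme2b, a near copy of Psme2, also match the pattern and were kept out of the sub-complex counts.

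The proteasome degrades proteins that carry ubiquitin chains. Its barrel-shaped core particle stacks rings of alpha subunits, which gate the entrance, on rings of beta subunits, of which Psmb5, Psmb6 and Psmb7 cut peptide bonds. The regulatory particle caps the core: its lid removes ubiquitin and its base, a ring of ATPases with a few large scaffold subunits, unfolds the substrate and feeds it in. In growing axons the ubiquitin-proteasome system is known for its part in growth cone steering and synapse formation.

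Ribosome-bound mRNA was purified from C57BL/6 mice that carry the RiboTag allele, an Rpl22 gene that gains an HA tag after Cre recombination. Cre came from Pax6-alpha-Cre, which is active for a limited time in progenitors of the peripheral retina, so that retinal ganglion cells (RGCs) inherit the tag and take it into their axons in the superior colliculus (SC). Each of the 24 libraries belongs to Cre-positive SC (RGC axons), Cre-negative SC (littermates with RiboTag and no Cre, the background of the HA pull-down) or retina (eyes of Cre-positive mice per the study's text, since the labels give no Cre status), at E17.5, P0.5, P7.5 or adult, with 2 libraries per group. A library pooled 6 SCs or 3 eyes, and the study calls the 2 libraries of a group biological replicates. The sources do not say that they came from separate litters, so that p-values measure only the spread between these pools. A further 4 adult libraries, 1 per condition, hold Cre-positive SC and retina after incubation in a run-off mix, in which elongating ribosomes finish and initiation is blocked, and without it. Levels are FPKM, fragments per kilobase of transcript scaled to the fragments mapped in the library, and differences are on the log2(FPKM + 1) scale, which understates the change of low genes.

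Some libraries stood apart. The depth, estimated from the spacing of low values, ran from 483100 to 22280000 fragments, and 4 SC libraries held at most 1285000: Cre-negative SC replicate 1 at E17.5, both adult Cre-positive SC libraries and adult Cre-negative SC replicate 1. In adult Cre-negative SC replicate 1 all 8 photoreceptor markers were above 0 and the lens markers, 3 of 4 above 0, summed to 220 FPKM, against 0.4785 FPKM in replicate 2. The retina libraries of replicate 1 at P7.5 and adult listed 4310 and 2080 genes above 0, against 8116 and 8076 in replicate 2. Of 8 RGC markers, Rbpms, Sncg and Thy1 were at 0 in all P0.5 SC libraries, and the summed RGC markers there were 291 and 109 FPKM in Cre-positive SC and 710 and 194 FPKM in Cre-negative SC.

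**Figure D1:**
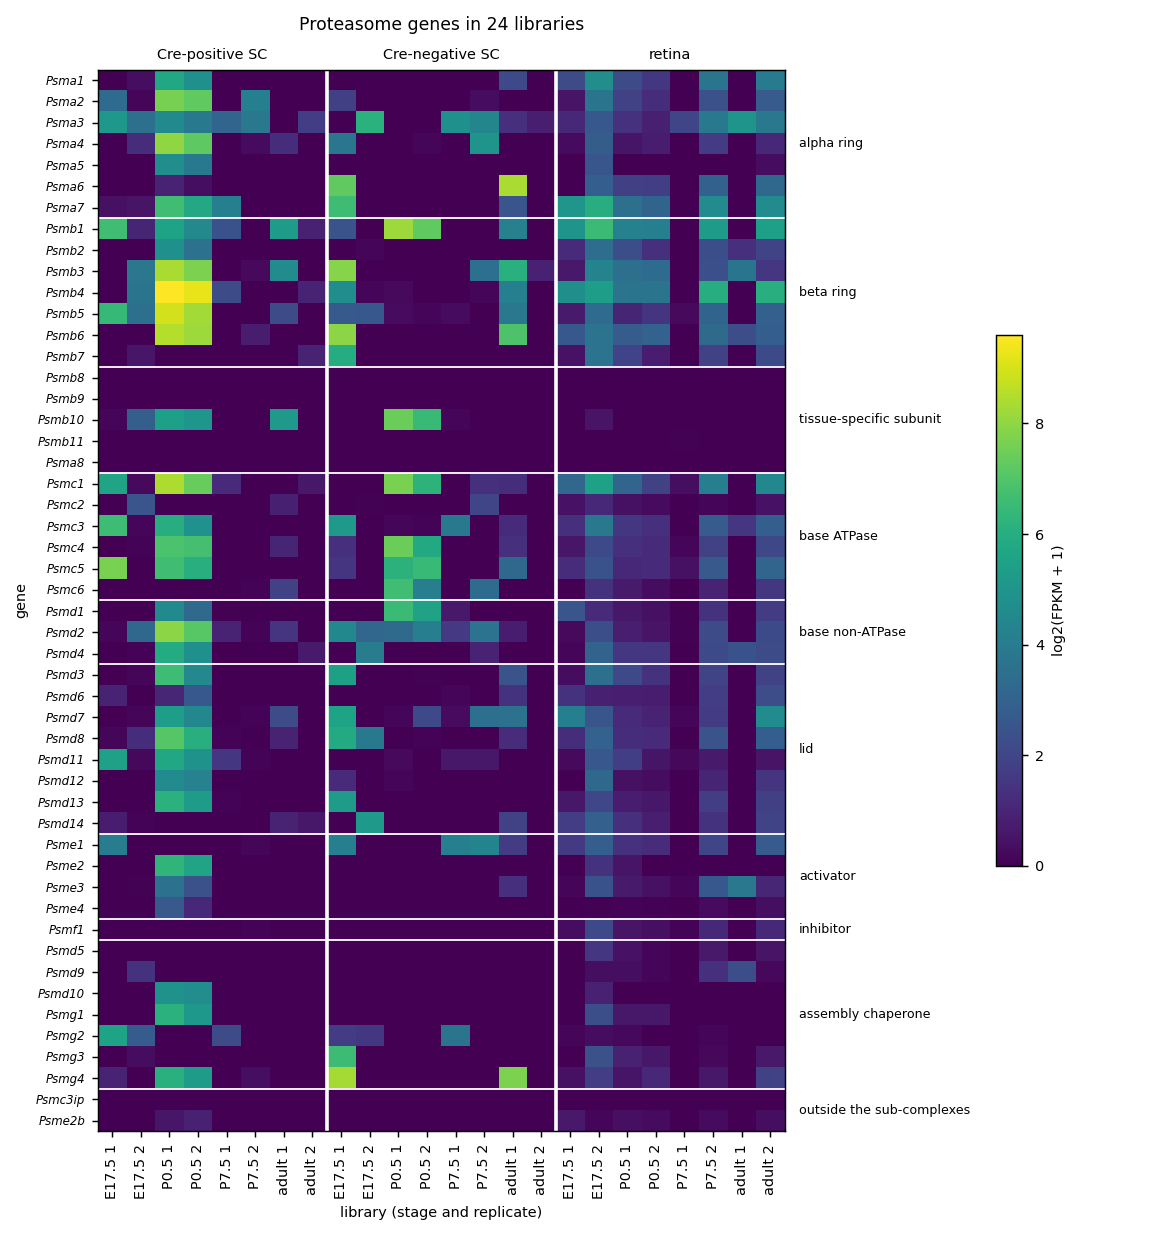
Level of the 50 proteasome genes (rows, grouped by sub-complex) in 24 libraries (columns, stage and replicate), as log2(FPKM + 1) by colour. The 2 P0.5 Cre-positive SC libraries hold the highest value of 24 members, and the same 15 genes are at 0, the darkest colour, in both. Over all genes, 5051 of 23991 were above 0 in either of these libraries. The share of all genes with their highest value there was not counted.

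The P0.5 Cre-positive SC group had the most members at 1 FPKM or more in both libraries. There, 33 of 50 members reached 1 FPKM in both libraries, or 66% of members against 14.9% of all genes. P0.5 Cre-negative SC held 8 members at that level (16%, against 6.14% of all genes) and P0.5 retina 18 (36%, against 6.04%). By members above 0 the retina held more, 42 and 40 at P0.5 against 35 and 35 in Cre-positive SC. The same held for all genes, with 8141 and 8448 above 0 in retina against 4617 and 4921 in Cre-positive SC. The replicates of P0.5 Cre-positive SC matched in which members they held: 33 passed 1 FPKM in both, none in 1 library only, and the same 15 members were listed at 0 in both. The match extended beyond the proteasome. Of all genes at 1 FPKM or more in either library, 87.3% reached it in both. P0.5 retina shared 70.6% and P0.5 Cre-negative SC 84%, while groups of the other stages shared 18.3% to 40.3%. Replicates correlated over 7193 genes at 0.944 to 0.951 at P0.5, and at 0.369 to 0.801 at the other stages. Over the 33 members the ratio of replicate 1 to replicate 2 had a median of 1.82, from 0.198 for Psmd6 to 4.64 for Psme4.

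At the other stages far fewer members were shared by the libraries of a group. At E17.5 both libraries held 4 members in Cre-positive SC (all genes, 4.78%), 4 in Cre-negative SC (5.64%) and 15 in retina (6.74%). At P7.5 the counts were 1 in Cre-positive SC (4.06%), 3 in Cre-negative SC (4.52%) and 1 in retina (3.6%). In the adult they were 0 in Cre-positive SC (2.97%), 0 in Cre-negative SC (2.14%) and 7 in retina (4.57%). Low counts went with libraries that disagreed: in P7.5 retina 29 members reached 1 FPKM in replicate 2 only, and in adult retina 25 did. Of all genes, 2584 and 2594 did so, against 301 and 330 in replicate 1 only. In Cre-negative SC at E17.5, 16 of the 19 members at 10 FPKM or more in a library were listed at 0 in the other (84.2%, against 50.9% of all genes at that level).

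**Figure D2:**
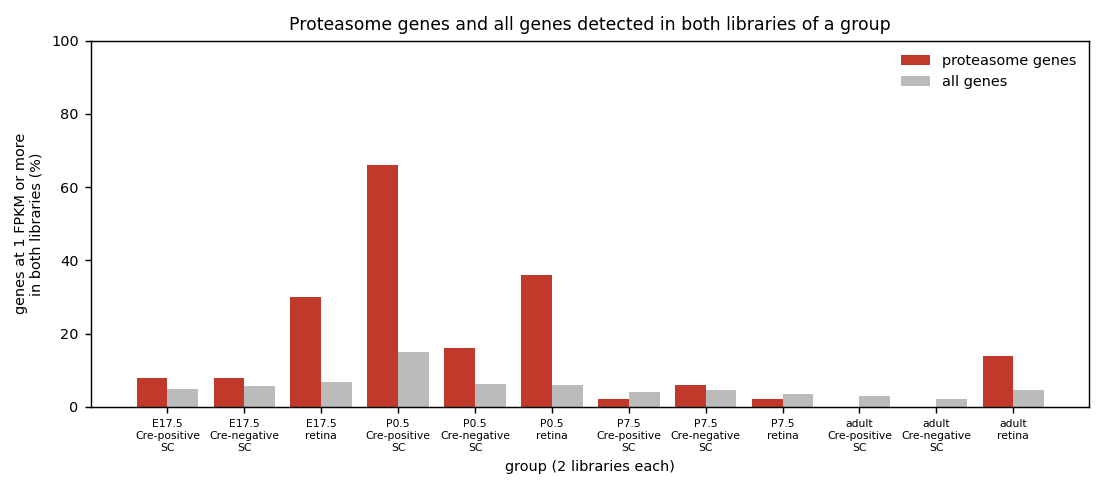
Share of the 50 proteasome genes (red) and of all genes (grey) at 1 FPKM or more in both libraries of each group, in percent. The P0.5 Cre-positive SC bar stands at 66%, above P0.5 retina at 36% and E17.5 retina at 30%.

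As a share of all FPKM in a library, the 50 members took 1.03% and 0.78% in the P0.5 Cre-positive SC libraries, against 0.334% and 0.275% in Cre-negative SC and 0.028% and 0.034% in retina of that stage. The 3 groups did not overlap. At E17.5 the Cre-positive SC libraries gave 0.276% and 0.0398%, which overlapped Cre-negative SC at 0.593% and 0.0805%. At P7.5 both Cre-positive SC libraries, at 0.0195% and 0.0204%, lay below the Cre-negative ones at 0.0537% and 0.0741%. In the adult the Cre-positive values of 0.0776% and 0.00336% lay between the Cre-negative values of 0.52% and 0.000398%. With 2 libraries against 2, no exact permutation test of such a value can reach significance.

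Setting Cre-positive beside Cre-negative SC asks which mRNAs exceed the background of the pull-down. At P0.5, 23 of the 39 members tested were higher in Cre-positive SC (28.1% of all genes tested were higher) and 2 were lower (4.35% of all genes). The median difference over the 39 members was 4.28, against 0.776 over all 5983 genes. A gene entered the test with 1 FPKM in any 2 or more of the 16 SC libraries. Through the P0.5 Cre-positive libraries alone, 12 of the 39 members entered (Psma1, Psma5, Psmb2, Psmd4, Psmd6, Psmd10, Psmd12, Psmd13, Psme2, Psme3, Psme4 and Psmg1). These had to be higher there, and their differences are given without p-values. Of all genes tested, 21.2% entered in this way, so that the medians over members and over all genes are partly set by the filter. The other 11 of the 23 met that minimum elsewhere too. In bulk tissue, fewer tagged cells and less mRNA per cell cannot be told apart, here or in the comparisons that follow. Of 6 astrocyte markers, 4 were above 0 in each P0.5 Cre-positive library (54.4 and 42.5 FPKM in all) and 2 in each Cre-negative one (5.78 and 10.6 FPKM), with Gfap and Aqp4 at 0 in all 4, and their part in the result was not tested. When FPKM were rescaled to the same sum in each library, the median over all genes fell to 0.158 and 19 members were higher. Leaving out either P0.5 Cre-positive library also cut the members tested from 39 to 33, as fewer met the filter. Without replicate 1 of P0.5 Cre-positive SC, 9 members passed, all of them higher, and without replicate 2, 13 passed, 12 higher and 1 lower. Without the 4 shallow SC libraries, an alternative chosen after the data were seen, 28 passed, and they included the 25 above.

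The beta ring held the largest differences. Psmb4, a non-catalytic beta subunit (gene at chr3:94884093-94886961, minus strand, in mm10), was the most abundant member at 774.5 and 626 FPKM in P0.5 Cre-positive SC, against 0.192 and 0 FPKM in Cre-negative SC and 11.8 and 11.8 FPKM in retina. Its difference from Cre-negative SC was 9.32 ± 1.80 (SE; adjusted p = 0.00224, limma). Psmb5, the catalytic subunit with chymotrypsin-like activity, stood at 496 and 305 FPKM, against 0.213 and 0.122 FPKM in Cre-negative SC (8.39 ± 1.38, limma adjusted p = 0.000768). Psmb6, the catalytic subunit with caspase-like activity, stood at 366 and 293 FPKM and was listed at 0 in both Cre-negative SC libraries (8.36 ± 2.41, limma adjusted p = 0.0217). In all 3 genes both Cre-positive libraries lay above every other P0.5 library.

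Psmb7, the remaining catalytic subunit with trypsin-like activity, went against its ring. It was listed at 0 in all 4 SC libraries of P0.5, at 2.83 and 0.678 FPKM in P0.5 retina, and was highest, at 60.8 FPKM, in replicate 1 of E17.5 Cre-negative SC. It did not pass the filter for the SC comparisons. Psmb3 (329 and 208 FPKM) and Psmb2 (27.4 and 11.3 FPKM), both non-catalytic, were listed at 0 in P0.5 Cre-negative SC and differed by 8.04 and 4.22, the latter fixed by the filter. Psmb1, also non-catalytic, was the reverse: 46.5 and 21.6 FPKM in Cre-positive SC against 290 and 153 FPKM in Cre-negative SC, a difference of -2.69 ± 2.14 that did not pass (limma adjusted p = 0.466), although the libraries did not overlap.

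All 7 alpha-ring genes were tested and 5 were higher: Psma1, Psma2, Psma4, Psma5 and Psma7, of which Psma1 and Psma5 had to be by the filter. Psma4 led them at 258 and 148 FPKM, against 0 and 0.0922 FPKM in Cre-negative SC (7.55 ± 1.56, limma adjusted p = 0.00348). Psma2 followed at 199 and 151 FPKM and Psma7 at 100.2 and 54.1 FPKM, with both Cre-negative libraries at 0. Summed over the ring, Cre-positive SC held 658 and 407 FPKM, Cre-negative SC 0 and 0.0922 FPKM and retina 21.6 and 14.8 FPKM. Psma6 fell out of the pattern at 0.888 and 0.265 FPKM in Cre-positive SC. Psma3 stood at 23.2 and 13.6 FPKM against 0 in both Cre-negative libraries and did not pass (4.24 ± 1.64, limma adjusted p = 0.0759). It was above 0 in 20 of the 24 libraries.

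Of the 6 base ATPases, none was higher at P0.5 and Psmc6 was lower (-5.38 ± 1.13, limma adjusted p = 0.00389), listed at 0 in both Cre-positive libraries and at 99.9 and 16.1 FPKM in the Cre-negative ones. The summed ATPases were 620 and 366 FPKM in Cre-positive SC and 543 and 232 FPKM in Cre-negative SC, values that overlap. Psmc1 stood at 342.5 and 164 FPKM against 201 and 72.7 FPKM, Psmc4 at 116 and 109 FPKM against 172 and 55.8 FPKM, and Psmc5 at 100.2 and 64.2 FPKM against 70.9 and 86.9 FPKM. The groups overlapped in each of these 3 genes. Psmc3 stood at 61.6 and 28.2 FPKM against 0.102 and 0.0579 FPKM (5.31 ± 2.13, limma adjusted p = 0.0867), and Psmc2 was listed at 0 in all 4 libraries.

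The 3 other base subunits, which scaffold the base or bind ubiquitin, split. Psmd2, which docks ubiquitin-like domains, stood at 242.5 and 138 FPKM against 8.98 and 16.2 FPKM (3.81 ± 1.24, limma adjusted p = 0.0373). Psmd4, a ubiquitin receptor, stood at 58.4 and 27.3 FPKM with both Cre-negative libraries at 0 (5.36 ± 1.08), a difference fixed by the filter. Psmd1, a large scaffold, was lower, at 22.8 and 9.07 FPKM against 93.3 and 44.8 FPKM (-2.09 ± 0.69, limma adjusted p = 0.0393).

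In the lid, 6 of 8 genes were higher at P0.5 (Psmd3, Psmd6, Psmd8, Psmd11, Psmd12 and Psmd13) and none was lower. Psmd6, Psmd12 and Psmd13 had to be higher by the filter, which leaves 3 that entered elsewhere too. Psmd8 was the most abundant at 133 and 63.1 FPKM, against 0 and 0.0632 FPKM in Cre-negative SC (6.49 ± 0.91, limma adjusted p = 0.000237). The summed lid was 417.5 and 196 FPKM in Cre-positive SC and 0.389 and 3.49 FPKM in Cre-negative SC. Psmd14, the deubiquitinase of the lid, was listed at 0 in all 4 SC libraries of P0.5, and at 1.44 and 0.73 FPKM in retina. Psmd7, its partner subunit, stood at 40.4 and 21.6 FPKM against 0.104 and 3.38 FPKM and did not pass (3.797 ± 1.87, limma adjusted p = 0.166).

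**Figure D3:**
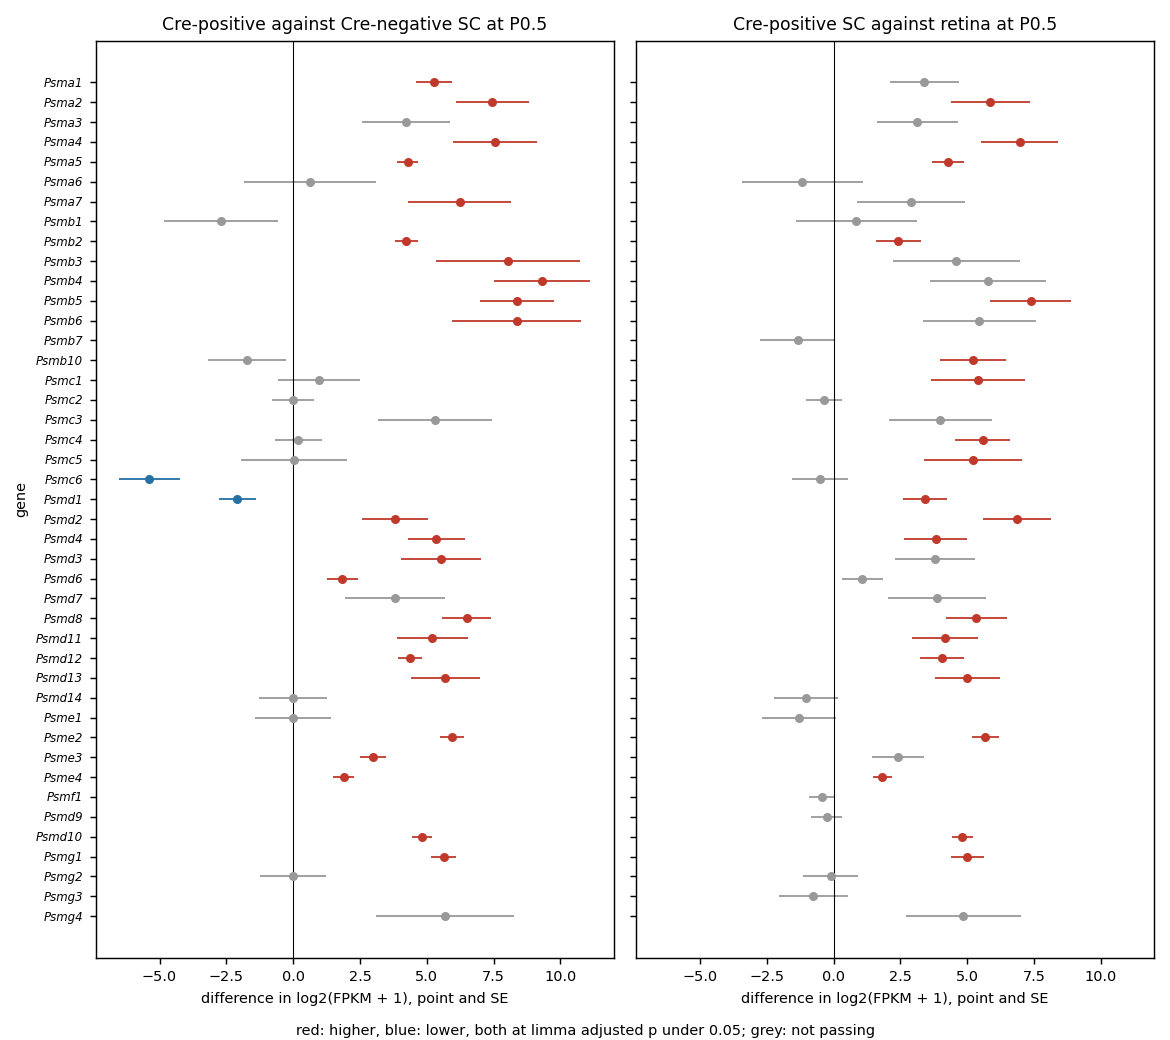
Difference in log2(FPKM + 1), with its standard error, of each tested member at P0.5 between Cre-positive and Cre-negative SC (left, 39 genes) and between Cre-positive SC and retina (right, 43 genes). Most core and lid genes lie to the right of 0 in both panels, while Psmc1, Psmc4 and Psmc5 lie near 0 on the left and above 5 on the right.

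The activators open the alpha ring in place of the regulatory particle. Psme2, a subunit of the interferon-inducible activator, stood at 75.8 and 48.1 FPKM against 0 in both Cre-negative libraries (5.94 ± 0.44), and its partner Psme1 was listed at 0 in all 4 libraries. Reads of Psme2 and of its near copy Psme2b, at 0.496 and 0.863 FPKM, may have been split between them. Psme3 (10.9 and 4.2 FPKM) and Psme4 (5.34 and 1.15 FPKM), both nuclear activators, differed by 2.97 and 1.88. The direction of all 3 differences was fixed by the filter. The inhibitor Psmf1 was listed at 0 in all P0.5 SC libraries.

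Of the 7 assembly chaperones, 4 were tested and 2 were higher, Psmg1 and Psmd10, both of which had to be by the filter. Psmg1, which pairs with Psmg2 to build the alpha ring, stood at 69.8 and 33.4 FPKM against 0 in both Cre-negative libraries (5.63 ± 0.46), while Psmg2 was listed at 0 in all 4. Psmg4 and Psmg3, the other pair, were alike in this: Psmg4 stood at 67.5 and 37.6 FPKM and Psmg3 was listed at 0. Psmd10, a base chaperone, stood at 29.8 and 24.9 FPKM (4.82 ± 0.37), and the base chaperones Psmd5 and Psmd9 were listed at 0.

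Of the tissue-specific subunits, only Psmb10 reached 1 FPKM in any library. The immune subunits Psmb8 and Psmb9, which replace Psmb5 and Psmb6, and the testis subunit Psma8, a counterpart of Psma7, were listed at 0 in all 24 libraries. The thymus subunit Psmb11 reached at most 0.0314 FPKM, in P7.5 retina. Psmb10, which replaces Psmb7, stood at 41.6 and 31.7 FPKM in the P0.5 Cre-positive libraries, against 173 and 87.7 FPKM in the Cre-negative ones, a difference of -1.73 ± 1.47 that did not pass (limma adjusted p = 0.515). It was at 0 in both P0.5 retina libraries. At the other stages it exceeded 1 FPKM in replicate 2 of E17.5 Cre-positive SC, at 6.41 FPKM, and in replicate 1 of adult Cre-positive SC, at 35.2 FPKM. Of 8 immune cell markers none was above 0 in the P0.5 Cre-positive libraries and 1, at 77.0 and 43.3 FPKM, in the Cre-negative ones.

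**Figure D4:**
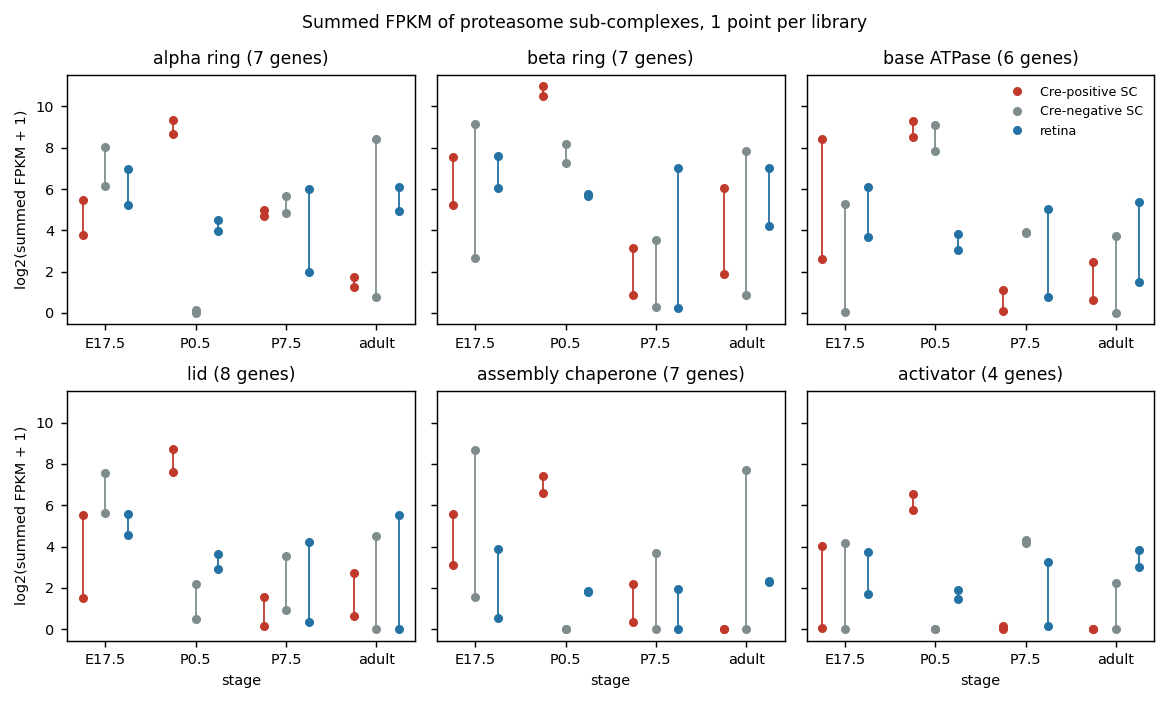
Summed FPKM of 6 sub-complexes, as log2(sum + 1), by stage, with 1 point per library and a line between the 2 libraries of a group (red Cre-positive SC, grey Cre-negative SC, blue retina). At P0.5 the alpha ring sums to 658 and 407 FPKM in Cre-positive SC and to 0 and 0.0922 FPKM in Cre-negative SC, while the base ATPases overlap between these groups.

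At the other stages no member passed between Cre-positive and Cre-negative SC. At E17.5 none of 39 passed (1.57% of all genes did, limma), 1 member had an unadjusted p under 0.05, and a version of NOISeq, the study's method, rewritten for FPKM called 16 of 38, 12 of them lower (42.1%, against 12.5% of all genes). The member nearest the threshold was Psmd8, at 0.0971 and 1.39 FPKM in Cre-positive SC against 57.9 and 13.8 FPKM in Cre-negative SC (-4.19 ± 0.91, limma adjusted p = 0.0527). At P7.5 none passed (0% of all genes, limma), 1 had an unadjusted p under 0.05 and NOISeq called 9 of 26, 7 of them lower (34.6%, against 15.2%). In the adult none passed (0.15% of all genes, limma), none had an unadjusted p under 0.05 and NOISeq called 6 of 28, 5 of them lower (21.4%, against 23.3%). Leaving out 1 library let 2 to 6 members pass at E17.5 in 3 of 4 cases and none in the fourth.

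The stage comparisons within Cre-positive SC ask how the axonal profile moves with age. They share the P0.5 Cre-positive libraries with the comparisons above. From E17.5 to P0.5, 22 of 39 members rose (25.1% of all genes) and Psmg2 fell (1.81% of all genes). Of the 22, 11 had entered the test only through the P0.5 Cre-positive libraries and had to rise, and 11 had entered elsewhere too. Psmg2 went from 45.9 and 5.85 FPKM to 0 in both libraries. The median over members, again partly set by the filter, was 4.43, against 0.689 over all genes. Psmb6, listed at 0 at E17.5, rose by 8.36 ± 2.41 (limma adjusted p = 0.0245), and Psmb4, at 0 and 11.97 FPKM at E17.5, by 7.597 ± 1.80 (limma adjusted p = 0.00876). Psma4, at 0 and 1.36 FPKM before, rose by 6.997 ± 1.56 (limma adjusted p = 0.00626). Psmb5 was already at 86.1 and 10.6 FPKM at E17.5 and did not pass (limma adjusted p = 0.0834). The count fell to 15 with FPKM rescaled to the same sum, to 4 without replicate 1 of P0.5 Cre-positive SC and to 10 without replicate 2.

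From P0.5 to P7.5, 27 of 39 members fell (29.2% of all genes) and none rose. Of the 27, 12 had to fall by the filter and 15 had entered elsewhere too. The median over members, again partly set by the filter, was -5.22, against -1.19 over all genes. Psmb5 fell to 0 in both P7.5 libraries (-8.61 ± 1.38, limma adjusted p = 0.000711). Psmb4 was at 3.56 and 0 FPKM at P7.5 (-8.35 ± 1.80, limma adjusted p = 0.00491), and Psmb6 at 0 and 0.659 FPKM (-7.995 ± 2.41, limma adjusted p = 0.0289). Of the base ATPases, Psmc1 (-7.33), Psmc4 (-6.83) and Psmc5 (-6.34) fell. The alpha-ring gene Psma3 kept 7.81 and 13.3 FPKM at P7.5 and did not pass. Without replicate 1 of P0.5 Cre-positive SC the count was 7, and without replicate 2 it was 14. From P7.5 to adult no member passed (0.0836% of all genes, limma) and none had an unadjusted p under 0.05.

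The interaction of stage with Cre asks whether the change with age differed between Cre-positive and Cre-negative SC. From E17.5 to P0.5, 20 of 39 members had a positive interaction, a change more upward in Cre-positive SC, (23.9% of all genes). Of the 20, 11 had entered only through the P0.5 Cre-positive libraries, which largely fixed their direction, and 9 had entered elsewhere too. Among all genes tested, 21.2% had entered in this way, so that the shares called are partly set by the filter. The interaction of Psmc6 was negative (3.23% of all genes): it was listed at 0 in Cre-positive SC at both stages and appeared in Cre-negative SC at P0.5. The largest interactions were those of Psmb6 (12.33 ± 3.41, limma adjusted p = 0.0206), Psmd8 (10.68 ± 1.29, limma adjusted p = 0.000255) and Psmb4 (9.88 ± 2.55, limma adjusted p = 0.0147). In Cre-negative SC, Psmb6 was listed at 244 and 0 FPKM at E17.5 and at 0 at P0.5. Without replicate 1 of E17.5 Cre-negative SC its interaction was 8.36 (limma adjusted p = 0.0478). From P0.5 to P7.5, 16 members had a negative interaction, a change more downward in Cre-positive SC (18.7% of all genes). They were led by Psma4 (-9.90 ± 2.21, limma adjusted p = 0.0084), Psmb5 (-8.52 ± 1.95, limma adjusted p = 0.00951) and Psmb4 (-8.31 ± 2.55, limma adjusted p = 0.0409). In Cre-negative SC, Psma4 was at 0 and 0.0922 FPKM at P0.5 and at 0 and 30.2 FPKM at P7.5. No base ATPase was among the 16. Of these, 11 had entered only through the P0.5 Cre-positive libraries, which largely fixed their direction, and 5 had entered elsewhere too. Without replicate 1 of P0.5 Cre-positive SC the 2 counts of members passing, 21 and 16, were 2 and 0, and without its replicate 2 they were 9 and 4. Without replicate 1 of P0.5 Cre-negative SC the first was 13. From P7.5 to adult none passed (0% of all genes, limma), nor at an unadjusted p under 0.05.

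In retina no member passed between stages. From E17.5 to P0.5 none of 34 members passed (0% of all genes, limma), none from P0.5 to P7.5 (0.0735%) and none from P7.5 to adult (0%). None had an unadjusted p under 0.05 in the 3 comparisons. At P0.5, 42 and 40 members were above 0 in retina, against 35 and 35 in Cre-positive SC. The highest in retina was Psmb1 at 17.8 and 16.7 FPKM, and in Cre-positive SC Psmb4 at 774.5 and 626 FPKM. Of the 43 members tested between these 2 groups, 33 were lower in retina and 10 were higher, whether or not they passed. In the fuller libraries of E17.5, P7.5 and adult retina the highest members were Psmb1 at 92.8 FPKM and Psmb4 at 62.0 and 64.8 FPKM. In P7.5 retina replicate 1, where the total of listed genes was low, Psma3 at 2.97 FPKM was the only member above 1 FPKM.

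Cre-positive SC was set against retina at each stage to compare the axon with the cells of the eye. At P0.5, 20 of 43 members were higher in Cre-positive SC (26.4% of all genes) and none was lower. The median over members was 3.86, against 0.334 over all 7193 genes. Psmb5, at 1.01 and 1.77 FPKM in retina, differed by 7.37 ± 1.499 (limma adjusted p = 0.0013), Psma4 by 6.97 ± 1.44 (limma adjusted p = 0.00153) and Psmd2 by 6.86 ± 1.28 (limma adjusted p = 0.000602). Here 3 base ATPases were among those higher, Psmc1, Psmc4 and Psmc5, at 5.39, 5.58 and 5.21. In P0.5 Cre-negative SC these 3 stood at levels that overlap Cre-positive SC (201 and 72.7, 172 and 55.8, and 70.9 and 86.9 FPKM). Psmd1 and Psmb10, also among the 20, had both Cre-negative libraries above both Cre-positive ones. This comparison does not separate axonal mRNA from the background of the pull-down. Over the 50 members, 34 had both Cre-positive libraries above both retina libraries, and 28 of them also above both Cre-negative ones. For Psmb4 and Psmb6 both Cre-positive libraries lay above both retina libraries, although neither passed the test (limma adjusted p = 0.06 and 0.0672). Of the 20, 5 met the filter only through the P0.5 Cre-positive libraries, as did 11.1% of all genes tested. Both medians are partly set by this. The count was 12 with FPKM rescaled, 11 with a pseudocount of 0.1, and 8 or 13 without replicate 1 or 2 of P0.5 Cre-positive SC.

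At the other stages no member passed against retina: at E17.5 (1.32% of all genes, limma) 7 members had an unadjusted p under 0.05, at P7.5 (0%) none, and in the adult (0.0973%) 3. At E17.5, 6 of those 7 were lower in Cre-positive SC, and Psmg2, at 45.9 and 5.85 FPKM against 0.118 and 0.251 FPKM in retina, was higher (3.92 ± 1.03, limma adjusted p = 0.0832). Median differences over members were -1.16, -0.713 and -0.838 at E17.5, P7.5 and adult, against -0.0652, -0.185 and -0.268 over all genes. Of 43 members, 33, 34 and 34 had a negative difference and 10, 4 and 5 a positive one. Over all genes tested, 37.7%, 27.6% and 21.8% had a positive difference.

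Other genes of the pathway were counted from a list. Of 25 such genes in the tables, which encode free or fused ubiquitin, shuttle factors, proteasome-bound enzymes and regulators, 12 were tested in SC and 4 were higher at P0.5 in Cre-positive than in Cre-negative SC (33.3%, against 28.1% of all genes), of which Uchl5 and Nfe2l2 had to be by the filter. Shfm1, the small subunit of the lid, stood at 107 and 81.6 FPKM against 0 in both Cre-negative libraries (6.56 ± 1.12, limma adjusted p = 0.000952). The proteasome-bound deubiquitinase Uchl5 (4.7 and 2.89 FPKM), the stress-response factor Nfe2l2 (28.3 and 5.87 FPKM) and the segregase Vcp (61.4 and 20.8 FPKM) were the other 3. Ubb, a polyubiquitin gene, stood at 434 and 216 FPKM against 14.5 and 1.89 FPKM, and did not pass. Pomp, the core maturation factor, the ubiquitin receptor Adrm1 and the deubiquitinase Usp14 were listed at 0 in all 4 SC libraries of P0.5.

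Sequence upstream of the start site was searched for 3 motifs, in the members with a promoter sequence and without a split by level in P0.5 Cre-positive SC. RefSeq (GRCm38.p6) gave the 250 bases before the start for 42 members, each counted once. TGACNNNGC, the core of the antioxidant response element, was found on either strand in 5 of the 42 (11.9%, against 10.2% of 32851 promoters), CCAAT in 15 (35.7%, against 33.8%) and GGGCGG in 22 (52.4%, against 32.7%). The 5 with the antioxidant response core were Psmb5, Psmb6, Psmc6, Psmd9 and Psmd12, which at P0.5 in Cre-positive SC ranged from 0 to 496 FPKM. The sequences of Psmb5 (chr14:54617996-54618245, minus strand) and Psmb6 (chr11:70525107-70525356, plus strand), both abundant there, and of Psmd14 (chr2:61711444-61711693, plus strand), listed at 0 there, are shown with every match to the 3 motifs, on either strand, in capitals and 5′ to 3′.
Psmb5: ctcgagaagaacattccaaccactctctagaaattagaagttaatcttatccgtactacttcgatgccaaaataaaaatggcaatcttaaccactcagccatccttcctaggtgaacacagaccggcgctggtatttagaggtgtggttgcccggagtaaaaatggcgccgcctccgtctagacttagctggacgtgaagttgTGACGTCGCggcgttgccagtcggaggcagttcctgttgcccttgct
Psmb6: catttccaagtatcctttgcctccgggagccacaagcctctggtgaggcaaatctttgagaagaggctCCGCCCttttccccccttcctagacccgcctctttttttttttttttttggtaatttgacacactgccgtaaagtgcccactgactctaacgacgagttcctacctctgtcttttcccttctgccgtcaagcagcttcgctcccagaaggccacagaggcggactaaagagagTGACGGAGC
Psmd14: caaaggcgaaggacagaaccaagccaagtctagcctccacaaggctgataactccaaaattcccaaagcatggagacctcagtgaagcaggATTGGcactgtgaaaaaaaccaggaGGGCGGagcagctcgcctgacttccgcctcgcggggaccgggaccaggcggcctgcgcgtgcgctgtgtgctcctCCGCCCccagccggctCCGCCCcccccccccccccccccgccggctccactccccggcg
Psmd14 holds 1 CCAAT and 3 GGGCGG matches, and Psmb5 holds 1 match in all. A relation of these motifs to level was not tested. The members listed at 0 and those at 1 FPKM or more in P0.5 Cre-positive SC had similar median transcript lengths, 1291 bases over 15 genes and 1183 bases over 33.

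The run-off libraries ask which mRNAs were on ribosomes that could finish translation. They hold 1 library per condition, so that no test was possible and differences between libraries have no replicate check. Without run-off, 27 members had a read in Cre-positive SC and 44 in retina, and with run-off 15 and 17. In SC the members summed to 4283 reads without run-off (95% Poisson interval 4156 to 4413) and 279 with it (247 to 314), or 6.51% of reads kept, against 10.7% for the whole library (3262914 and 349395 reads). In retina they summed to 3596 reads (3479 to 3715) and 326 (292 to 363), or 9.07% kept, against 6.72% for the whole library (4686284 and 315009 reads). The intervals cover counting error only, in cDNA that was amplified by PCR.

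In SC, 22 of the 25 members with at least 20 reads over the pair were at least 2-fold lower with run-off, a share of 88% beside 88.2% of all genes. Scaled to the library total as RPM, the count was 21 of 25 (84%), beside 69.4% of all genes. Psmb1 went from 573 reads to 1, Psma6 from 503 to 0, Psmb4 from 419 to 3, Psmd9 from 389 to 0, Psme3 from 288 to 0 and Psmb6 from 268 to 1. Of the lid, 5 genes held 502 reads without run-off, and none of the 8 had a read with it, which allows up to 8.59 RPM. The exceptions were Psmb2, from 0 reads to 117, Psme2, from 0 to 101, and Psmd2, from 1 to 26. Psma1 went from 121 to 16 reads, or from 37.1 to 45.8 RPM. The 22 members with at least 20 reads in the SC library without run-off included 14 that were listed at 0 in both adult Cre-positive SC libraries of the main series (63.6%, against 52.7% of all genes at that read count).

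In retina, 33 of 36 members (91.7%) were at least 2-fold lower, beside 90.2% of all genes, and in RPM 25 of 36 (69.4%), beside 57.3% of all genes. Psmb4 went from 372 reads to 8, Psmd8 from 292 to 18 and Psmd7 from 256 to 0. Psmd5 went from 35 to 36 reads, Psmg2 from 19 to 17, Psmd12 from 7 to 23, Psmd1 from 108 to 51 and Psmb5 from 62 to 27. Psma6 went from 229 to 58 reads in retina and from 503 to 0 in SC. Psmd14, at 0 in both SC libraries, was also at 0 in both retina libraries.

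**Figure D5:**
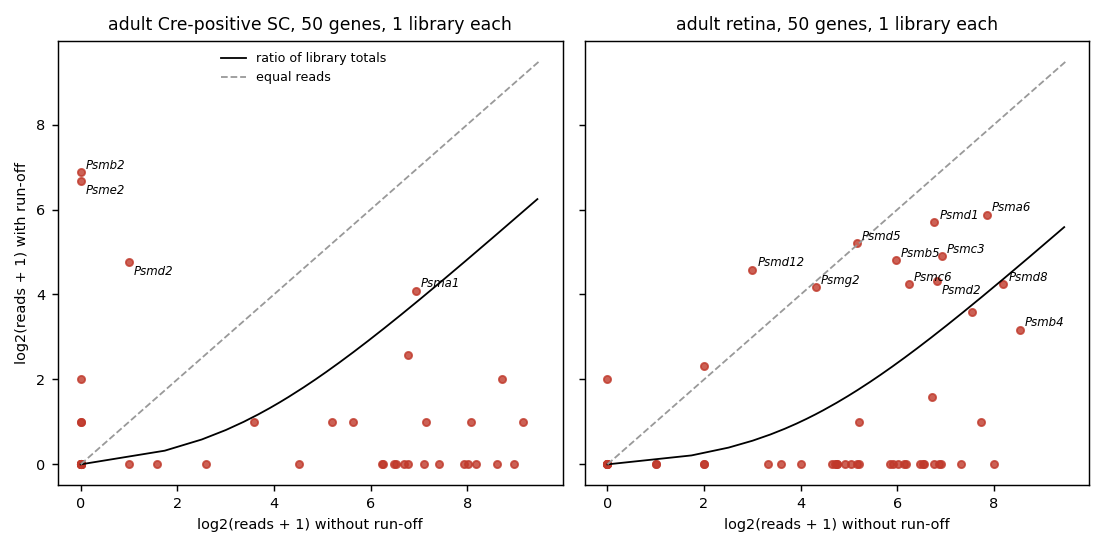
Reads with run-off against reads without it for the 50 members, as log2(reads + 1), in adult Cre-positive SC (left) and adult retina (right), 1 library per condition. Members on the black line kept the same share of reads as the whole library (10.7% in SC, 6.72% in retina); most lie at or near 0 reads with run-off, and Psmb2, Psme2 and Psmd2 lie above the dashed line of equal reads in SC.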

How the data were processed

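RNA was purified with an antibody to HA, reverse-transcribed and amplified by PCR, with more cycles for SC than for retina. The 24 main libraries were deposited as FPKM, which the authors made with TopHat2 2.0.12 on mm10 and Cufflinks 2.2.1. The 4 run-off libraries were deposited as a raw read count per gene (HTSeq 0.6.1p1). The authors set the sequencing input of each run-off pair by its yield of cDNA, so that unscaled reads and reads scaled to the library total are both given. Of 23995 genes, 4 had a missing entry and were left out.

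Values were put on the log2(FPKM + 1) scale and tested two-sided with limma 3.58.1 (R 4.3.3), its prior variance following mean level and robust to outlying genes, p-values adjusted by Benjamini-Hochberg over all genes tested, threshold 0.05. Genes needed 1 FPKM in at least 2 libraries of a fit. SC (16 libraries), retina (8) and all 24 were fitted as groups, and each fit shares 1 estimate of spread. The study called genes by NOISeq on counts; these were not used here, and NOISeq at probability 0.7 was rewritten for FPKM as an alternative. Scripts were tested on simulated data. Depth, 483100 to 22280000 fragments, was estimated from the spacing of low FPKM and is approximate. Intervals are exact Poisson, and a count of 0 allows 3 reads. Values in every library are given for the 3 largest differences each way in a comparison, the most abundant member of each sub-complex, tissue-specific subunits with their counterparts, and members that go against their sub-complex. Members, lists and motifs were chosen with earlier results of these data known.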

Additional observations from a re-analysis of the deposited data

Results flagged for a closer look

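The change from E17.5 to P0.5 differed between Cre-positive and Cre-negative SC (limma interaction, adjusted p under 0.05) in 20 proteasome genes with a positive interaction, a change more upward in Cre-positive SC, and in 1 with a negative one. Of the 20, 11 entered the test only through the P0.5 Cre-positive libraries, which largely fixed their direction, and 9 entered elsewhere too. The 3 largest were Psmb6 at 12.33, Psmd8 at 10.68 and Psmb4 at 9.88 on the log2(FPKM + 1) scale, and the 1 in the other direction was Psmc6 at -5.38, listed at 0 in Cre-positive SC at both stages. In E17.5 Cre-negative SC, Psmb6 was at 244 FPKM in replicate 1 and at 0 in replicate 2. Without replicate 1 the interaction of Psmb6 was 8.36 (limma adjusted p = 0.0478), and 17 members passed in place of 21.

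From P0.5 to P7.5 the interaction passed in 16 genes, all with a change more downward in Cre-positive SC. Of the 16, 11 entered only through the P0.5 Cre-positive libraries, which largely fixed their direction, and 5 entered elsewhere too. The 3 largest were Psma4 at -9.90, Psmb5 at -8.52 and Psmb4 at -8.31. In P7.5 Cre-negative SC, Psma4 was at 0 and 30.2 FPKM.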

How the results depend on the processing

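Of 1720 values of members that passed, recomputed under another setting, 1371 still passed, 349 did not, and none changed direction. Many of these values belong to members that entered only through the P0.5 Cre-positive libraries, whose direction the filter had largely fixed. With 2 libraries per group, a single library decided many calls, above all replicate 1 of P0.5 Cre-positive SC, where a lone library is assumed to vary like the other groups. Without either P0.5 Cre-positive library, 33 members met the filter for the SC comparisons in place of 39. With the main settings, members passed by limma only in comparisons that include P0.5, the stage whose replicates were most alike over all genes. Whether the calls depend on that likeness was not tested.

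Leaving out 1 library at a time, the number of members passing between Cre-positive and Cre-negative SC ran from 0 to 6 at E17.5 and from 9 to 18 at P0.5, and was 0 at P7.5 and adult. It ran from 4 to 22 from E17.5 to P0.5, from 7 to 20 from P0.5 to P7.5, from 2 to 23 and from 0 to 13 for the interactions over these steps, and from 0 to 4, 8 to 16, and 0 to 1 against retina at E17.5, P0.5 and adult. It was 0 in the other comparisons.

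Other settings moved 11 of 147 counts by more than 1.5 times. A pseudocount of 0.1 gave 11 members against retina at P0.5 in place of 20, and FPKM rescaled to the same sum gave 12 there and 15 from E17.5 to P0.5 in place of 23. Array weights gave 13 in place of 21 and 25 in place of 16 for the interactions. At E17.5, median-ratio scaling let 1 member pass between Cre-positive and Cre-negative SC (Psmd8, lower), as did leaving out the shallow libraries (1, Psmd4, lower), and a fit without Cre-negative SC let 1 pass against retina (Psmg2, higher). NOISeq, rewritten for FPKM, gave 16, 9 and 6 members at E17.5, P7.5 and adult where limma gave 0, or 42.1%, 34.6% and 21.4% of members against 12.5%, 15.2% and 23.3% of all genes, with 12, 7 and 5 of them lower. The causes were not tested.

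With the replicate number as a block, 24 members passed between Cre-positive and Cre-negative SC at P0.5, in place of 25, and no count moved by more than 1.5 times. The labels do not say that a number marks a shared litter, and same-numbered deviations correlated over genes at 0.565, 0.427, 0.456 and 0.081 from E17.5 to adult in SC. The run-off counts stayed within 1.5 times under the settings tried. An adult SC library at an estimated 510500 fragments lists 3 fragments on 1 kb as 5.88 FPKM, which limits what can be seen there.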

Other observations

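The highest members of the shallowest libraries were chosen for description after their values were seen. In replicate 1 of E17.5 Cre-negative SC, at an estimated 483100 fragments, the 4 highest members were Psmg4 (316 FPKM), Psmb6 (244 FPKM), Psmb3 (232 FPKM) and Psma6 (150.3 FPKM). In replicate 1 of adult Cre-negative SC, at an estimated 510500 fragments, the 4 highest were the same genes, Psma6 at 331 FPKM, Psmg4 at 209 FPKM, Psmb6 at 119 FPKM and Psmb3 at 66.5 FPKM. In replicate 2 of both groups these genes were listed at 0, apart from Psmb3 at 0.84 FPKM in the adult. Over all genes, these libraries shared 650 of those at 10 FPKM or more, which is 27.2% of the E17.5 list of 2386 and 63.9% of the adult list of 1017.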
